A study of Mus musculus with 12 samples.

Results

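The genes studied here build and maintain the centrosome and its centrioles, and 46 of them were found among the 55487 gene IDs of the count table. They were chosen by name and not by their measured values: all protein-coding genes called Cep plus a number, without Cep120, and Plk4, Sass6, Stil, Cenpj, Pcnt, Ninl, Ofd1, Cntrob, Pcm1, Cdk5rap2 and Ccp110. The study measured RNA by sequencing in 12 libraries of whole mouse kidney at postnatal day 15, in 4 groups of 3. Hoxb7-Cep120 KO kidneys, whose titles call them homozygous, were set against Hoxb7-Cep120 kidneys whose titles call them heterozygous. Hoxb7-Pkd1 KO kidneys, also titled homozygous, were set against Hoxb7-Pkd1 kidneys titled heterozygous. The genotype label of both heterozygous groups reads WT, and they are called controls below. As background, the Hoxb7 promoter is used to drive Cre in the ureteric bud and the collecting ducts that grow from it, so whole kidney also holds many cells outside the targeted lineage. Nothing in the labels ties each library to its own animal, so p-values measure only the spread between these libraries. The design text asks which pathways are disturbed after loss of Cep120, a centriole protein, and after loss of Pkd1, which encodes the ciliary protein polycystin-1.

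A centriole is a short barrel of microtubules, and a pair of them embedded in pericentriolar material makes the centrosome. The kinase Plk4 starts each new centriole, with Stil and Sass6 as its partners, and Cenpj, Cep135 and Cep295 help to build and lengthen the wall. Appendages at the end of the older centriole dock it to the membrane, where it becomes the basal body of the primary cilium that kidney tubule cells carry. Several of these genes are transcribed mainly in dividing cells, since centrioles are duplicated once in each cell cycle.

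Libraries held 23070736 to 31837973 estimated counts. In 6 libraries, which were all 3 Cep120 KO, Cep120 controls 1 and 2 and Pkd1 control 3, at least 30321 genes were detected, and in the other 6 at most 25665. Cep120 controls 1 and 2 differed less than any other pair within a group, with a chi-squared per gene of 5.30 against 26 to 67.5, but by more than sampling noise. Xist RNA was at most 0.177 CPM in the Pkd1 KO libraries and at least 53.6 CPM in the Pkd1 controls, so sex-linked RNA and genotype cannot be told apart within the Pkd1 comparison. It was at most 0.366 CPM in Cep120 KO 1 and 2, and 192.8 CPM in Cep120 KO 3. Both Xist and Y-linked RNA lay at 11.7 CPM or more in 4 libraries, with 192.8 and 17.4 CPM in Cep120 KO 3, 58.7 and 27.7 CPM in Cep120 control 1, 125 and 11.7 CPM in Cep120 control 2, and 53.6 and 104 CPM in Pkd1 control 3. Whether these libraries hold RNA of more than 1 animal was not tested. Cep120 RNA averaged 17.9 ± 2.2 CPM in Cep120 KO and 16.2 ± 2.5 CPM in Cep120 control (SD, n = 3 each), and Pkd1 RNA 28.8 ± 6.7 CPM in Pkd1 KO and 17.2 ± 4.0 CPM in Pkd1 control. Neither targeted gene was lower at the RNA level in its KO group. Pkd1 was higher in every Pkd1 KO library than in any Pkd1 control (log2 fold change 0.74 ± 0.20, SE, edgeR adjusted p 0.00952). Cep120 was not called in Cep120 KO (0.14 ± 0.16, edgeR adjusted p 0.835). Counts over a whole gene do not show whether a deleted exon is missing.

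Most centrosome genes were weakly expressed. TPM, a unit scaled to the same total in each library, corrects for transcript length and so allows levels to be compared between genes. The mean TPM over the 12 libraries had a median of 3.10 over the 46 genes, and 30 genes lay under 5 TPM. Apart from Cep85, described below, the highest levels were 31.9 TPM for Cep19, 22 TPM for Cep63, 20.1 TPM for Cep57, 19.2 TPM for Cep89 and 17.1 TPM for Cdk5rap2. Cep19 and Cep89 act at the distal end of the mother centriole, Cep63 and Cep57 at the proximal end, and Cdk5rap2 recruits gamma-tubulin. The duplication genes lay lower, with 3.01 TPM for Sass6, 2.88 TPM for Plk4, 1.04 TPM for Stil, 0.808 TPM for Cep152 and 0.773 TPM for Cep135. Cep295nl had at most 8 counts in any library and was not tested, which left 45 genes. Exons of 16 genes overlap another annotated gene, and the use of strand in counting is not stated in the labels. Among the genes called below these are Cep290, Cep295, Cep57l1 and Cep85l, whose counts could therefore hold reads of their neighbours.

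In Cep120 KO kidneys none of the 45 centrosome genes passed the test. Across all 19890 genes tested with edgeR's quasi-likelihood test the share called at a Benjamini-Hochberg adjusted p under 0.05 was 0%, and 1201 genes had an unadjusted p under 0.05. DESeq2 called 21 genes, none of them a centrosome gene. Two-sided unadjusted p-values were under 0.05 for 2 centrosome genes, Cep68 and Cep85. The log2 fold changes ran between -0.93 and 0.51 with a median of 0.04, against 0.01 over all genes tested, and 28 were above 0 and 17 below. For 42 genes the change was smaller than 0.5 on the log2 scale in either direction. The standard errors had a median of 0.18, so small changes were not detectable with 3 libraries a group.

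**Figure D1:**
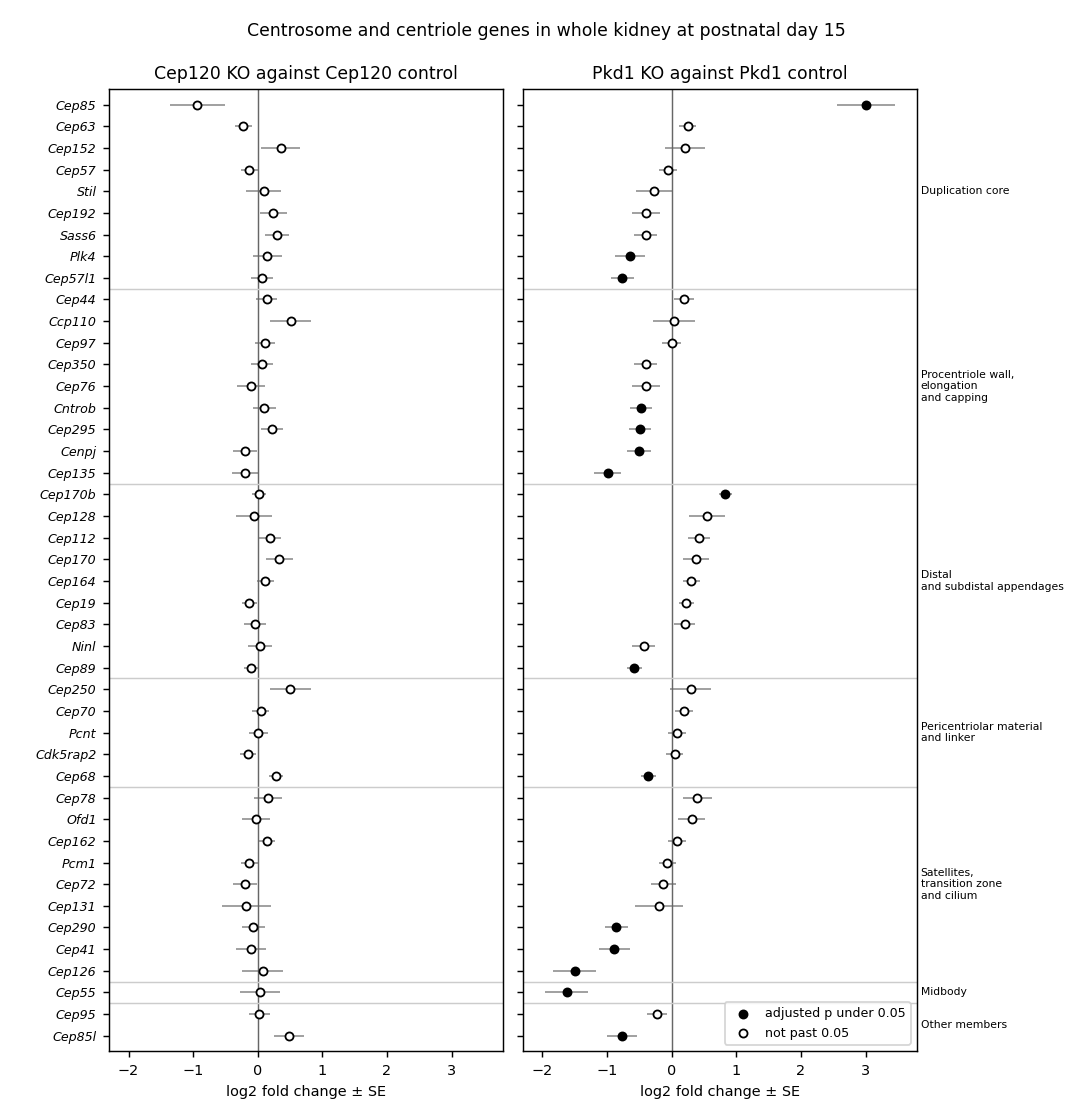
Log2 fold change with its standard error for 44 of the 45 tested centrosome and centriole genes, grouped by role, in Cep120 KO against Cep120 control on the left and in Pkd1 KO against Pkd1 control on the right. Filled points passed an adjusted p of 0.05: none on the left, and 15 on the right, of which 13 lie below 0. Over all genes tested 0% passed on the left and 44.4% on the right.

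The genes nearest to a call in Cep120 KO were of mixed roles. Cep68, which helps to hold the 2 centrioles of a pair together, had 21.2, 25.8 and 24.3 CPM in Cep120 KO libraries and 19.8, 20.6 and 18.3 CPM in Cep120 control libraries. Every Cep120 KO library lay above every control, and its log2 fold change was 0.28 ± 0.11 (SE, with an adjusted p of 0.757). Cep85l, a relative of Cep85, had 3.42, 3.32 and 3.58 CPM in Cep120 KO and 3.23, 2.12 and 2.07 CPM in Cep120 control, again without overlap (log2 fold change 0.48 ± 0.23, adjusted p 0.757). Cep63, a scaffold at which Plk4 is recruited, had 21.3, 18.6 and 23.5 CPM in Cep120 KO and 22.9, 24.5 and 26.8 CPM in Cep120 control. Its groups overlapped (log2 fold change -0.23 ± 0.13, adjusted p 0.757). Sass6, which forms the cartwheel that sets the symmetry of a new centriole, had 5.96, 8.36 and 8.91 CPM in Cep120 KO and 6.72, 6.76 and 5.44 CPM in Cep120 control, with overlapping groups (log2 fold change 0.30 ± 0.18, adjusted p 0.757). In all, 4 genes lay above in every Cep120 KO library and 1 below, where 8.64% and 7.88% of all genes tested did so. Markers of dividing cells did not pass the test either, with 0 of 12 called and a median log2 change of -0.13.

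The Pkd1 comparison differed in scale. Of the 45 centrosome genes, 15 were called in Pkd1 KO kidneys, 2 higher and 13 lower, where 44.4% of all genes tested were called (22.1% higher and 22.4% lower). When the log2 CPM values deposited by the authors were tested instead, 12 were called (4 higher, 8 lower), and 8740 of all 19890 genes (4930 higher, 3810 lower). Summed over both directions, the share of centrosome genes called was 33.3%, below that of all genes. For rises alone it was 4.4%, below the 22.1% of all genes, and for falls alone 28.9%, above the 22.4% of all genes. Neither difference was tested, and the counts of rises and falls changed in other fits, as given below. The median log2 fold change of the centrosome genes was -0.07, against -0.04 over all genes tested. The groups did not overlap for 21 genes, 6 above and 15 below, where 27.4% of all genes lay above and 25.5% below. Only 3 genes changed by 2-fold or more, Cep85, Cep55 and Cep126. Of the 13 that fell, 4 belong to the centriole wall, 3 to the satellites and cilium, 2 to the duplication core, and 1 each to the appendages, the linker, the midbody and the genes of other roles.

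Values moved with other features of the Pkd1 KO kidneys. Of 12 markers of dividing cells 11 fell (median log2 change -1.81), and their summed level was 152 to 229.7 CPM in Pkd1 KO and 429 to 498 CPM in Pkd1 control. All 8 proximal tubule markers fell (summed level 482 to 729.8 CPM in Pkd1 KO and 4390 to 7202 CPM in Pkd1 control). Markers of immune, collecting duct and stromal cells went the other way. All 8 macrophage markers rose (1311 to 1941 CPM in Pkd1 KO and 145 to 469.6 CPM in Pkd1 control), as did all 6 principal cell markers (1982 to 3523 CPM in Pkd1 KO and 559 to 808 CPM in Pkd1 control). All 6 stromal markers rose as well (4033 to 6241 CPM in Pkd1 KO and 784 to 1415 CPM in Pkd1 control). Of 6 multiciliated cell markers, Mcidas and Cdc20b were too low to test and 2 of the other 4 rose. In bulk tissue fewer cells of a type and less RNA per cell cannot be told apart, and the part of these shifts in the values below was not tested.

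**Figure D2:**
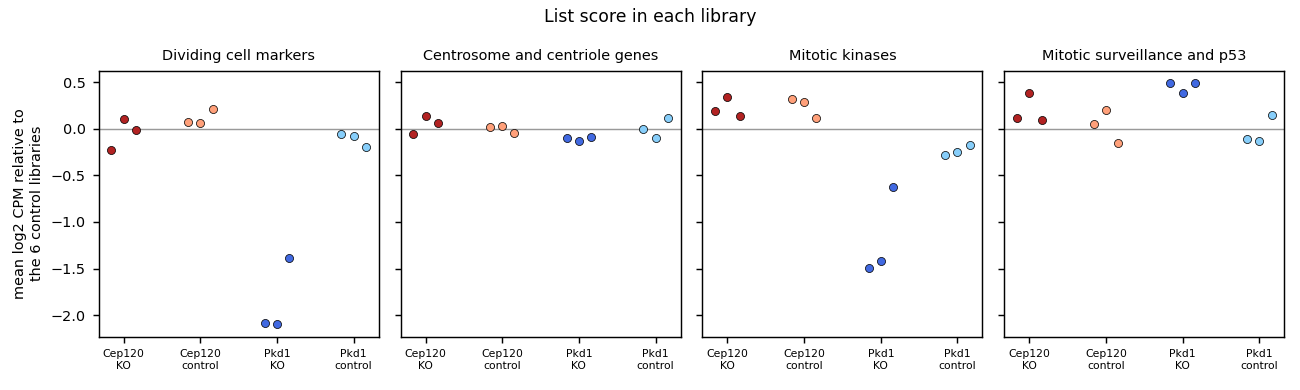
Mean log2 CPM of each gene list in each library, relative to the 6 control libraries, for 12 dividing cell markers, the centrosome and centriole genes, 4 mitotic kinases and 6 genes of mitotic surveillance and p53. The Pkd1 KO libraries sit at -2.10 to -1.39 for the dividing cell markers but at -0.13 to -0.08 for the centrosome genes. The centrosome mean combines genes that rose and genes that fell. It includes Cep85, whose log2 fold change of 3.0 in Pkd1 KO rested on a single transcript, as described below. A mean without Cep85 was not computed.

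Of the duplication genes, Plk4 fell. It had 3.62, 3.90 and 5.24 CPM in Pkd1 KO and 7.39, 4.67 and 7.86 CPM in Pkd1 control, and its log2 fold change was -0.65 ± 0.23 (SE), with an adjusted p of 0.0346. The groups overlapped, because Pkd1 control 2 lay below Pkd1 KO 3, and in Cep120 KO Plk4 had a log2 fold change of 0.15 ± 0.23. Its partners did not pass the test. Stil, which activates Plk4, had 2.57, 1.93 and 3.27 CPM in Pkd1 KO and 2.93, 2.26 and 4.12 CPM in Pkd1 control (log2 fold change -0.27 ± 0.28, adjusted p 0.456). Sass6 had 5.55, 5.51 and 5.74 CPM in Pkd1 KO, all below the 8.17, 6.88 and 7.11 CPM of Pkd1 control, but its log2 fold change of -0.40 ± 0.18 had an adjusted p of 0.0864.

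The scaffolds that place Plk4 gave no call. Cep192 had 5.96, 6.41 and 5.20 CPM in Pkd1 KO and 6.09, 6.78 and 10.2 CPM in Pkd1 control (log2 fold change -0.40 ± 0.22, adjusted p 0.151), Cep152 4.47, 3.03 and 3.73 CPM in Pkd1 KO and 2.44, 2.46 and 4.80 CPM in Pkd1 control (0.21 ± 0.31, adjusted p 0.605). Cep63 had 26.4, 31.2 and 29.0 CPM in Pkd1 KO and 22.2, 28.4 and 22.4 CPM in Pkd1 control (0.25 ± 0.13, adjusted p 0.139). All 3 had overlapping groups. Cep57l1, a relative of Cep57 that helps to keep sister centrioles engaged, fell: 4.84, 5.09 and 6.32 CPM in Pkd1 KO, all below the 8.37, 10.3 and 8.92 CPM of Pkd1 control (log2 fold change -0.76 ± 0.18, adjusted p 0.00379). Cep57 itself averaged 35.0 ± 3.6 CPM in Pkd1 KO and 36.4 ± 4.9 CPM in Pkd1 control (SD, n = 3 each).

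**Figure D3:**
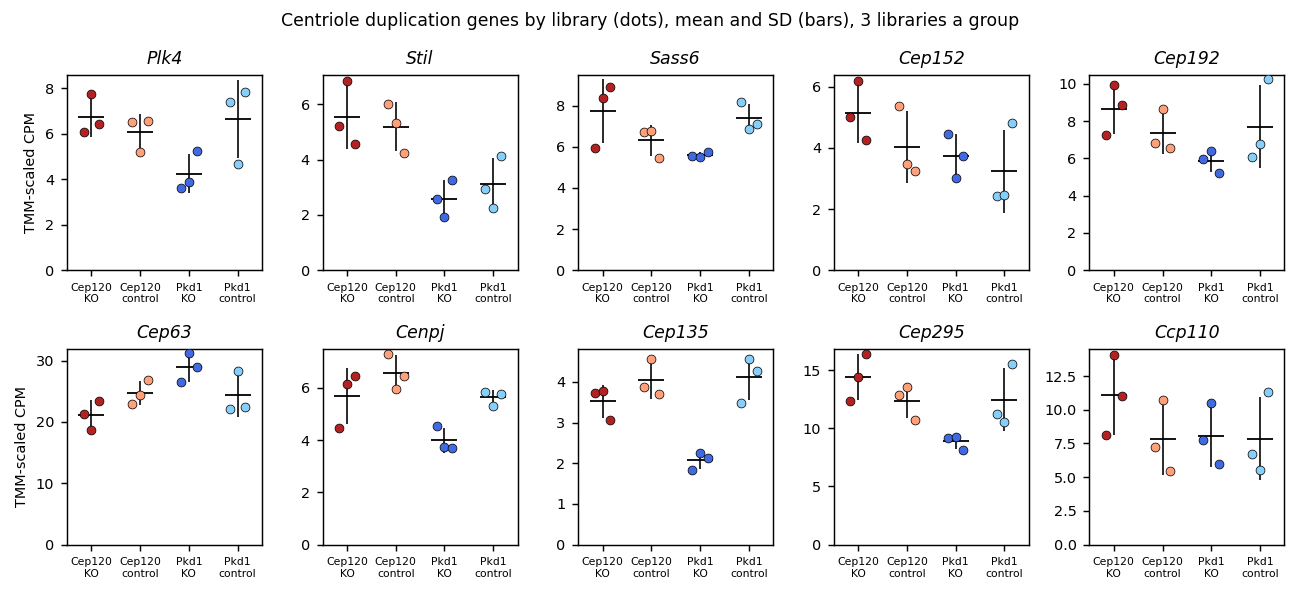
TMM-scaled CPM of 10 centriole duplication genes in each library (dots), with mean and SD of the 3 libraries of a group (bars); each panel has its own axis starting at 0. Cep135, Cenpj, Cep295 and Sass6 lie lower in every Pkd1 KO library than in any Pkd1 control library, Sass6 without passing the test, whereas Plk4, Stil, Cep152, Cep192, Cep63 and Ccp110 overlap.

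Of 10 genes of the centriole wall tested, 4 fell, where 22.4% of all genes tested did so. Of these 4, Cep135 alone was called with the replicate block, with the deposited log2 CPM, with a term for detected-gene number, and with both replicate 3 controls left out. Cep135, a cartwheel and wall protein, had 1.83, 2.25 and 2.12 CPM in Pkd1 KO and 3.48, 4.57 and 4.27 CPM in Pkd1 control. Its log2 fold change was -0.99 ± 0.21 (adjusted p 0.00213), and no library of one group reached those of the other. Cenpj, which lengthens centriolar microtubules, had 4.54, 3.74 and 3.7 CPM in Pkd1 KO and 5.83, 5.32 and 5.78 CPM in Pkd1 control. Cep295, needed to turn a new centriole into a working centrosome, had 9.17, 9.28 and 8.15 CPM in Pkd1 KO and 11.2, 10.5 and 15.5 CPM in Pkd1 control. The log2 fold changes were -0.50 ± 0.19 for Cenpj (adjusted p 0.0450) and -0.49 ± 0.17 for Cep295 (adjusted p 0.0348), both without overlap. Cntrob, a daughter centriole protein, averaged 3.10 ± 0.37 CPM in Pkd1 KO and 4.32 ± 0.40 CPM in Pkd1 control (SD, n = 3 each; log2 fold change -0.48, adjusted p 0.0418). Ccp110, which caps the distal end and is removed before a cilium grows, had 7.75, 10.5 and 5.96 CPM in Pkd1 KO and 6.71, 5.53 and 11.3 CPM in Pkd1 control. It was not called (log2 fold change 0.04 ± 0.32), nor was its partner Cep97 (-0.00).

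The appendage genes went both ways. Cep170b, a relative of the subdistal appendage protein Cep170, had 46.2, 47.0 and 42.2 CPM in Pkd1 KO and 25.5, 25.4 and 25.3 CPM in Pkd1 control. Every Pkd1 KO library was above the controls, with a log2 fold change of 0.83 ± 0.10 (adjusted p 4.83e-05), and Cep120 KO libraries had 24.7, 30.2 and 26.7 CPM. Cep170 was not called (log2 fold change 0.38 ± 0.20, adjusted p 0.143). Cep89, a distal appendage protein needed for cilium formation, had 22.2, 24.7 and 26.1 CPM in Pkd1 KO and 38.4, 38.3 and 32.2 CPM in Pkd1 control, without overlap (log2 fold change -0.58 ± 0.12, adjusted p 0.00165). The other distal appendage genes tested gave no call, with log2 fold changes of 0.20 for Cep83 and 0.30 for Cep164. In the linker and pericentriolar material Cep68 fell, with 16.1, 17.1 and 16.4 CPM in Pkd1 KO and 22.9, 19.1 and 21.5 CPM in Pkd1 control (log2 fold change -0.36 ± 0.11, adjusted p 0.0216). The large scaffold Pcnt (0.08), Cdk5rap2 (0.05) and the linker protein Cep250 (0.29) were not called in this fit. Cep250 had 13.3, 11.2 and 11.5 CPM in Pkd1 KO and 6.48, 6.38 and 16.6 CPM in Pkd1 control. Over the alternatives tried its log2 fold change ran between -0.54 and 0.90, and it was called in some of them, as given below.

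Genes of the satellites, transition zone and cilium gave 3 calls of 9, all lower. Of all genes tested 44.4% were called, and 22.4% were called lower. Cep126, a satellite protein needed for the primary cilium, had 0.948, 1.39 and 0.646 CPM in Pkd1 KO and 3.26, 1.96 and 3.21 CPM in Pkd1 control. The groups did not overlap, and the log2 fold change was -1.50 ± 0.33 (adjusted p 0.0029). Of the deposited counts of Cep126, 58.8% in Pkd1 KO and 60.5% in Pkd1 control were assigned to transcripts not annotated as protein-coding. Cep290, which builds the transition zone at the base of the cilium, had 7.89, 6.35 and 10.1 CPM in Pkd1 KO and 16, 15.7 and 12.3 CPM in Pkd1 control (log2 fold change -0.86 ± 0.17, adjusted p 0.00164). Cep41, which takes part in tubulin glutamylation in the cilium, had 2.23, 2.48 and 3.37 CPM in Pkd1 KO and 6.19, 5.12 and 3.63 CPM in Pkd1 control (log2 fold change -0.89 ± 0.24, adjusted p 0.00966). Both were without overlap. The satellite scaffold Pcm1 (-0.07), Ofd1 (0.31) and Cep131 (-0.20) were not called.

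The largest fall belonged to Cep55, which acts at the midbody when daughter cells separate. It had 1.32, 1.03 and 2.76 CPM in Pkd1 KO and 4.82, 4.92 and 6.01 CPM in Pkd1 control. Every Pkd1 KO library lay below every control, with a log2 fold change of -1.63 ± 0.33 (adjusted p 0.00154). In Cep120 KO it had 5.23, 6.70 and 7.52 CPM and in Cep120 control 8.06, 5.74 and 5.15 CPM. Cep85l had 2.27, 1.87 and 1.79 CPM in Pkd1 KO and 3.62, 3.11 and 3.40 CPM in Pkd1 control (log2 fold change -0.77 ± 0.23, adjusted p 0.0169).

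**Figure D4:**
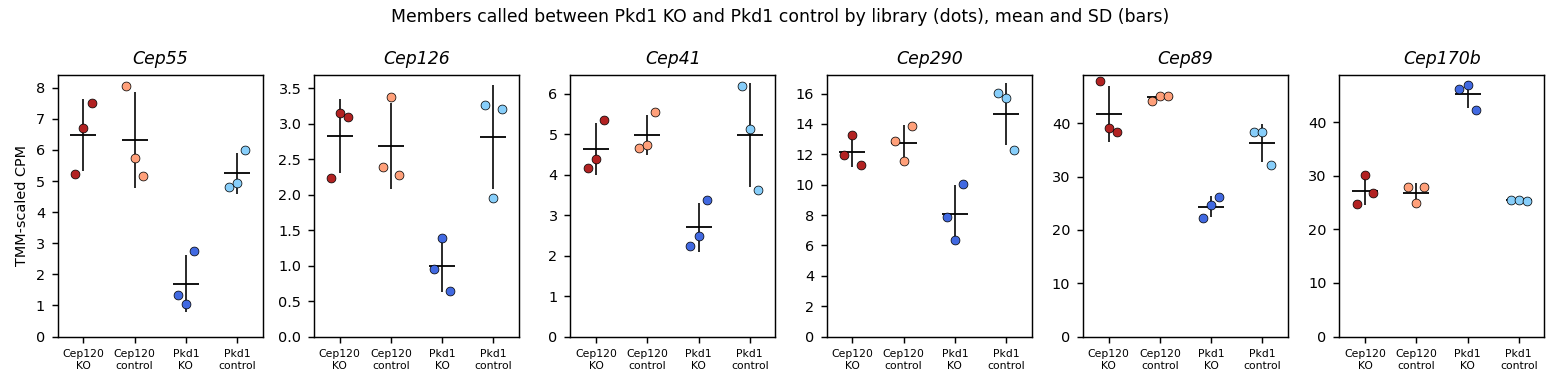
TMM-scaled CPM of 6 genes called between Pkd1 KO and Pkd1 control, by library (dots) with mean and SD of 3 libraries (bars); each panel has its own axis starting at 0. Cep55, Cep126, Cep41, Cep290 and Cep89 are lower in all 3 Pkd1 KO libraries than in any Pkd1 control library, and Cep170b is higher.

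The number of Pkd1 calls varied between fits. With Pkd1 control 3 and Cep120 control 3 left out, so that each KO comparison stayed within libraries of like detected-gene number, 17 centrosome genes were called in Pkd1 KO, 7 higher and 10 lower, and 9138 of 20591 genes tested in all. They include 11 of the 15 above, and Plk4, Cenpj, Cep295 and Cntrob were not among them. Calls gained in that fit were Cep112, Cep128, Cep170, Cep250 and Ofd1, all higher, and Ninl, which was lower. All of these but Cep112 were also called with a term for detected-gene number. Without Pkd1 control 1 there were 9 calls, and 7979 of 20795 over all genes. With a term for Xist in the fit, which in the Pkd1 comparison rests on the Cep120 KO libraries alone, 3 genes were called, Cep85, Cep170b and Cep89; with a term for Y-linked RNA 5 were called, Cep55, Cep126, Cep135, Cep85 and Cep170b. Over all genes these fits called 2002 and 4547. Over the 27 alternatives tried the log2 fold change stayed between -2.17 and -1.29 for Cep55 and between -1.06 and -0.72 for Cep290. For Cep126 it stayed between -1.83 and -1.28 over the 26 alternatives that tested this gene. The log2 fold change moved more, relative to its size, for Cep41 (-1.10 to -0.32), Cep295 (-0.64 to -0.20) and Cenpj (-0.62 to -0.22).

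Promoter sequences of 3 genes that fell are shown because they hold motifs known from cell cycle promoters: Cep55 for its size of change, Plk4 as the starter of duplication and Cep295 as the promoter with most motifs. The windows cover 250 bases before to 50 after the start in RefSeq, build GRCm38.p6, written 5′ to 3′ on the strand of the gene, with capitals for motif letters on either strand. Cep55 lies at chr19:38054734-38055033 on the plus strand, Plk4 at chr3:40799701-40800000 on the plus strand and Cep295 at chr9:15357739-15358038 on the minus strand.
Cep55: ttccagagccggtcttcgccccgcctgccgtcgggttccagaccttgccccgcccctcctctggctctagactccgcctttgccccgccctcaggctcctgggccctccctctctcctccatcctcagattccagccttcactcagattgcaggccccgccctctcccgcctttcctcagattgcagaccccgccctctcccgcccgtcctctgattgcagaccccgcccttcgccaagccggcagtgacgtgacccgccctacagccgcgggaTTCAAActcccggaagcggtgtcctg
Plk4: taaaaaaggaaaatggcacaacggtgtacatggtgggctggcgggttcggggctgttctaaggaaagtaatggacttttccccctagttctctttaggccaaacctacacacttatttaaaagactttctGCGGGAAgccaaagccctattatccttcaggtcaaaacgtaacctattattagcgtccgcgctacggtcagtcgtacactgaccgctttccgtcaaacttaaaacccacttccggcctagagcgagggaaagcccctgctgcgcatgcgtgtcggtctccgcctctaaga
Cep295: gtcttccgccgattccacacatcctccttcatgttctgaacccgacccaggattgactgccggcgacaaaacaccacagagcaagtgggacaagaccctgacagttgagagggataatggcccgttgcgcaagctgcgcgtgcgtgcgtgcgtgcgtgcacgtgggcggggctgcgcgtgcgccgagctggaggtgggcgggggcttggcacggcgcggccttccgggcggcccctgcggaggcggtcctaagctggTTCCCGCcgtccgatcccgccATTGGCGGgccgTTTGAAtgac

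The motifs searched on both strands were the cell cycle element TTTGAA and its variant TTCGAA, the box CCAAT, and the E2F cores, which were TTCCCGC and also TTGGCGC, further TTGGCGG, and last TTCGCGC. In Cep295 the reverse of CCAAT and TTGGCGG share letters. RefSeq promoters were matched for 39 of the 46 genes. An E2F core was found in 14 of them (35.9%), against 11.6% of all 27025 genes with a promoter, and TTCCCGC alone in 12 (30.8%), against 5.29%. TTTGAA or TTCGAA was found in 12 (30.8%, against 21.7%) and CCAAT in 17 (43.6%, against 41.1%). Among the 12 genes that fell and had a promoter, 3 held an E2F core (Cep295, Cep41 and Plk4) and 4 held TTTGAA (Cep295, Cep55, Cep57l1 and Cep89). The 27025 genes were not limited to protein-coding or expressed genes, whereas the 46 are all protein-coding, so the 2 sets are not alike. A match of letters is a description and not a bound site.

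Cep85, which binds Stil, had the highest mean TPM over the 12 libraries and the largest change in Pkd1 KO. Both rested on counts assigned to a single transcript. In Cep120 KO alone Cep85 averaged 10.8 TPM, below the 30.5 TPM of Cep19. The whole gene had 582, 464 and 409 CPM in Pkd1 KO and 75.7, 74.9 and 30.8 CPM in Pkd1 control, a log2 fold change of 3.0 ± 0.45 (adjusted p 0.000179). Of the deposited counts of Cep85, 95 to 97% in Pkd1 KO and 48.0 to 84.7% in Pkd1 control were assigned to Cep85-207, a non-coding processed transcript of 4 exons and 1010 bases. In the Cep120 groups that share was 7.58 to 27.4% in Cep120 KO and 19.0 to 83.1% in Cep120 control. Without Cep85-207, Cep85 had 17.6, 16.2 and 20.5 CPM in Pkd1 KO and 14.7, 11.5 and 16 CPM in Pkd1 control. The groups still did not overlap, but the log2 fold change of 0.36 ± 0.17 was not called (adjusted p 0.101; over the 27 alternatives tried for Cep85 it ran between 6.65e-69 and 0.101). In Cep120 KO the whole gene had 19.4, 21.6 and 18.1 CPM and in Cep120 control 23.5, 19.8 and 69.6 CPM (log2 fold change -0.93 ± 0.43, adjusted p 0.757). Without Cep85-207 that change was 0.19 ± 0.17 (adjusted p 0.804).

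**Figure D5:**
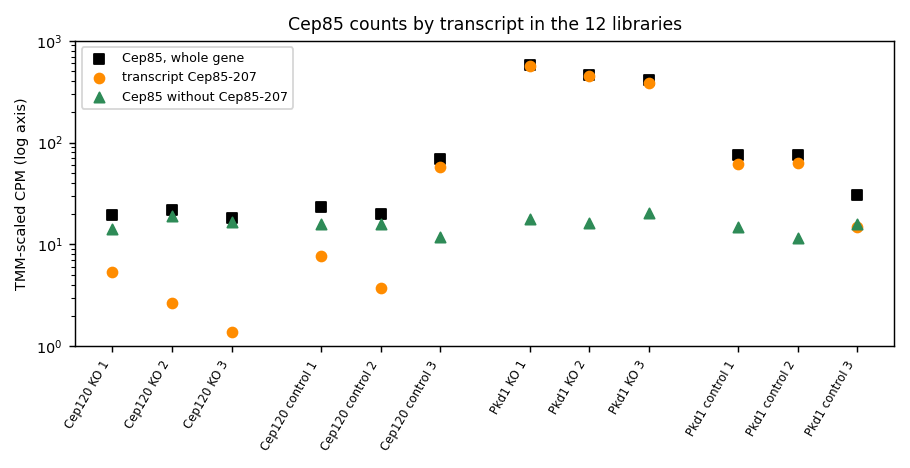
TMM-scaled CPM on a log axis for the whole Cep85 gene (squares), the non-coding transcript Cep85-207 (circles) and Cep85 without that transcript (triangles) in the 12 libraries. Cep85-207 ranges between 1.37 and 565 CPM, whereas the rest of the gene stays between 11.5 and 20.5 CPM.

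The last exon of Cep85-207, 646 bases inside an intron of Cep85, resembles other transcripts. With at least 90% identity over at least 100 bases it matched annotated transcripts of 14 other genes, for example Cnbd2 (99.7% over 351 bases) and Apobec3 (93.1% over 547 bases). Of the 12 of these genes with counts, 7 were higher in every Pkd1 KO library than in every other library. The same share over all genes was not computed, so this count is a description only. Against the Pkd1 controls alone, 27.4% of all genes tested lay above in every Pkd1 KO library. Cnbd2 had 53.1, 48.2 and 38.9 CPM in Pkd1 KO and 13.2, 11.7 and 3.66 CPM in Pkd1 control. Reads of Cep85-207 and these transcripts could be assigned to one another, so the whole-gene Cep85 value is uncertain. Cep85-207 was at 57.8 CPM in Cep120 control 3 and at 7.66 and 3.76 CPM in Cep120 controls 1 and 2. In Pkd1 control 3 it was at 14.8 CPM, and at 61.0 and 63.4 CPM in Pkd1 controls 1 and 2. In both control groups the higher values thus sat in libraries with fewer detected genes. The same control libraries had at most 0.0628 CPM of Y-linked RNA, and the other control libraries at least 11.7 CPM. The part of either feature in the result was not tested.

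The 2 KO effects differed for 10 centrosome genes, where 28.1% of all genes tested had a difference called. The difference is the Pkd1 log2 fold change minus the Cep120 log2 fold change, and the comparisons share no control libraries. It was below 0 for Cep55 (-1.67 ± 0.45, adjusted p 0.0160), Cep126 (-1.57 ± 0.46, adjusted p 0.0229), Cep85l (-1.25 ± 0.33, adjusted p 0.0140) and Cep57l1 (-0.83 ± 0.25, adjusted p 0.0264). For Cep85l and Cep68 (-0.64 ± 0.16, adjusted p 0.0112) every Cep120 KO library lay above its controls while every Pkd1 KO library lay below its own. Differences were also called for Cep290 (-0.79 ± 0.25, adjusted p 0.0307), Cep295 (-0.71 ± 0.24, adjusted p 0.0442) and Cep89 (-0.47 ± 0.17, adjusted p 0.0488). Cep170b was the gene with a difference above 0 that did not turn on Cep85-207 (0.81 ± 0.15, adjusted p 0.00173). For Plk4 the difference of -0.80 ± 0.32 was not called (adjusted p 0.0798), nor was that of Cep135 (-0.79 ± 0.29, adjusted p 0.0603).

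The 2 control groups gave no called centrosome gene, and 0% of all genes tested were called by edgeR, with 834 at an unadjusted p under 0.05. Of the centrosome genes 3 had an unadjusted p under 0.05. Stil had 2.93, 2.26 and 4.12 CPM in Pkd1 control and 6.0, 5.33 and 4.26 CPM in Cep120 control, without overlap, a log2 fold change of -0.74 ± 0.28 (adjusted p 0.979). Cep89 had 38.4, 38.3 and 32.2 CPM in Pkd1 control and 44.2, 45.1 and 45.2 CPM in Cep120 control, and the satellite gene Cep72 8.17, 7.18 and 7.22 CPM in Pkd1 control and 11.0, 11.7 and 7.55 CPM in Cep120 control. Cep89 did not overlap and Cep72 did. Cep89 (-0.30 ± 0.12), Cep72 (-0.42 ± 0.19) and Cep85l (0.45 ± 0.23) had the next smallest p-values, with the same adjusted p. The highest Stil value in the Pkd1 groups, 4.12 CPM, lay below the lowest in the Cep120 groups, 4.26 CPM.

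Further genes outside the naming rule, of the centrosome, the mitotic kinases and the mitotic surveillance and p53 pathway, were read in the same fit. Of 38 such genes 9 rose and 7 fell in Pkd1 KO, or 23.7% and 18.4%, where 22.1% and 22.4% of all genes did so. Of the 9 that rose, 3 belong to the mitotic surveillance and p53 list. None of the 38 was called in Cep120 KO. In the gamma-tubulin ring, which nucleates microtubules, 2 of 9 rose (Tubg2 1.13 and Tubgcp2 0.74, log2 fold change) and Tubgcp4 fell (-0.62). Among 14 further centriole genes Poc1b (0.49) and Cntrl (0.68) rose, and Cetn2 (-0.82), Poc1a (-0.51) and the spindle pole gene Aspm (-2.62) fell. Of 5 appendage genes Odf2 (0.54) rose. The mitotic kinase genes Plk1 (-1.53), Aurka (-1.57) and Nek2 (-1.48) fell while Plk2 (0.995) rose. Of 6 genes of p53 and of mitotic surveillance, the pathway that arrests cells after centrosome loss, Cdkn1a (2.08), Mdm2 (0.53) and Trp53 (0.45) rose in Pkd1 KO. In Cep120 KO none of the 6 was called: the log2 fold changes were 0.46 for Usp28, 0.38 for Trp53bp1, 0.25 for Pidd1, 0.11 for Trp53, 0.04 for Mdm2 and -0.27 for Cdkn1a. By edgeR's test 2 of the 6 had an unadjusted p under 0.05, as did 1201 of all 19890 genes tested.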

How the data were processed

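RNA sequencing of 12 whole-kidney libraries was read from tables deposited by the authors. Per the submitters' processing notes, the tools were Salmon 0.8.2, featureCounts 1.4.6-p5 of Subread, STAR 2.5.1a and bcl2fastq, and the build was mm9, without roles. The deposited estimated counts per gene and per transcript, the deposited TPM, and the deposited moderated log2 CPM (an alternative input only) were used; 287 repeated gene lines were dropped and counts were rounded, since 21.6% of genes had values that were not whole. R 4.3.3 with edgeR 4.0.16 (filterByExpr, TMM, quasi-likelihood test) fitted all 12 libraries in 4 groups over 19890 genes, with a common biological coefficient of variation of 0.238, Benjamini-Hochberg adjustment over all of them and a threshold of 0.05. Alternatives used DESeq2 1.42.0, limma 3.58.1, other scalings, filters and terms, and each library left out; the fit without Cep85-207 was chosen after seeing the data. Only the edgeR fit was tried on simulated data, for the 2 KO comparisons, with the spread between libraries taken from the same fit. The other fits and comparisons were not tried in this way. Cep85-207 was compared with GENCODE transcripts by BLAST 2.17.0. CPM values are scaled by TMM. Total counts limit weak genes, and this covers counting error only. The genes, their roles and all lists were chosen with earlier results of these data known. Genes named with every library were 10 duplication genes, the largest called Pkd1 changes (up to 7 each way), the 5 smallest p-values for Cep120 KO, all genes whose KO effects differed and the 4 smallest p-values between controls; the sequences, Cntrob, Cep57 and other genes given with means or single values were chosen for their role. The values of 1 tested gene are not reported here; it stays in the counts and medians.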

Additional observations from a re-analysis of the deposited data

Results flagged for a closer look

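For 10 of the 45 centrosome genes tested the Pkd1 effect and the Cep120 effect differed by edgeR's test of the difference itself. The adjusted p was under 0.05 over all genes tested, of which 28.1% had a difference called. The log2 differences, Pkd1 minus Cep120, were 3.94 for Cep85, 0.81 for Cep170b, -0.47 for Cep89, -0.64 for Cep68, -0.71 for Cep295, -0.79 for Cep290, -0.83 for Cep57l1, -1.25 for Cep85l, -1.57 for Cep126 and -1.67 for Cep55. The Cep85 difference was 0.18 without the non-coding transcript Cep85-207 and was then not called. The difference for Cep170b was called under every alternative tried, and those of the other 9 genes were each lost under at least 1.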

How the results depend on the processing

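Weak expression and 3 libraries a group limit these results. In Cep120 KO, all genes called numbered 0, but 21 with DESeq2, 344 without a filter on low counts, 1 without both replicate 3 controls and 0 to 2 when 1 library was left out; centrosome genes called numbered 0, but 1 without a filter (Cep85). The median log2 change of the centrosome genes was 0.18 with the deposited log2 CPM in Cep120 KO (all genes 0.15). In Pkd1 KO that median was -0.16 with upper quartile scaling (all genes -0.13), 0.018 with the deposited log2 CPM (all genes 0.059), -0.22 with the Y-linked RNA term (all genes -0.05) and -0.152 to -0.017 when 1 library was left out; the deposited log2 CPM gave 12 calls, 4 higher and 8 lower, with Cep19 and Cep63 among the higher. Pkd1 calls over all genes were 2002 with the Xist term and 4547 with the Y-linked RNA term, against 8839; centrosome calls were 3 and 5 under these terms, 9 at an adjusted p of 0.01 and 9 to 15 with 1 library left out (7277 to 9266 over all genes). Differences of effects numbered 5 among centrosome genes without a filter and 2 at an adjusted p of 0.01 (2751 over all genes). With 1 library left out they numbered 5 to 10 (4225 to 5781 over all genes). The fewest among centrosome genes came without Cep120 control 1. Between controls, all genes called were 248 without a filter, 1 with the detected-gene term, 371 without both replicate 3 controls and 0 to 4 with 1 library left out; centrosome genes called were 1 without a filter and 2 without both replicate 3 controls, where group and detected-gene number cannot be told apart. The difference of effects for Cep250 was reversed without both replicate 3 controls (0.61). Same-numbered libraries did not deviate together within the KO comparisons (correlations of -0.14 to 0.18). Between the control groups the correlations were -0.432, -0.215 and -0.599 for replicates 1, 2 and 3. With 3 libraries a group such correlations cannot decide whether the numbers pair the samples. With a replicate block 12 centrosome genes were called in Pkd1 KO and 7 in the difference, and 7804 and 4363 over all genes. Of the Pkd1 calls, Cep170b held under all 27 alternatives, and the cause of the lost calls was not tested.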
